A study of Mus musculus with 4 samples.

Results

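The nucleoporins and nuclear import receptors were taken as the genes whose symbol begins with Nup, Kpna, Kpnb, Ipo or Tnpo followed by a digit. They numbered 37 of the 16695 genes in the table, made up of 21 nucleoporin genes, 5 importin alpha genes (Kpna) and 11 genes of the importin beta family (Kpnb1, Ipo and Tnpo). Their RNA was measured by RNA-seq in 4T1, a cell line from a mouse mammary carcinoma, as wild type (WT) and as a knockout (DHODH KO) of Dhodh, the gene of the mitochondrial enzyme dihydroorotate dehydrogenase of de novo pyrimidine synthesis. Each genotype had 2 libraries, and the series asks what the loss of Dhodh does to gene expression in these cells. The labels name no treatment, and they do not say whether the KO cells were a clone or whether libraries came from separate cultures, so the spread behind the p-values may be technical.

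The nuclear pore complex is a ring of nucleoporins set in the nuclear envelope. Its scaffold consists of the Y complex on the outer rings and of an inner ring, and nucleoporins rich in phenylalanine-glycine repeats fill the channel. Further nucleoporins belong to the filaments on the cytoplasmic side and to the basket on the nuclear side. Proteins with an import signal are carried through the channel by receptors of the importin beta family, either bound directly or, for the classical signal, through an importin alpha adaptor that pairs with importin beta, the product of Kpnb1. The small GTPase Ran releases the cargo in the nucleus.

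The libraries held between 34639043 and 37697518 reads, as worked out from the steps of the deposited FPKM values (fragments scaled to gene length and library total). Dhodh measured 10.9 and 10.3 FPKM in WT and 9.67 and 8.69 FPKM in KO (adjusted p = 0.0425, limma), so its RNA was only slightly lower in KO. The place of the edit in the gene is not given, so this level is a weak check of the labels. The Dhodh call was lost without WT replicate 1 (adjusted p = 0.170), without WT replicate 2 (0.0597) and without DHODH KO replicate 2 (0.200). The epithelial markers Epcam, Krt7, Krt8, Krt18, Krt19 and Cdh1 summed to between 1933 and 1957 FPKM in every library, a sum made up mostly of Krt7, Krt8 and Krt18. Within it, Krt19 rose from 67.5 to 139 FPKM and Epcam from 43.6 to 62.9 FPKM, Krt8, Krt18 and Cdh1 were called lower, and Krt7 was not called. Of 10 heart muscle markers, Tnnt2 was high in all libraries. The other 9 summed to 85.3 FPKM in DHODH KO replicate 2 and to 0.302 FPKM or less in the other libraries, where 6 of them (Myh6, Myl2, Myl3, Tnni3, Actc1 and Nppa) were at 0. Fibroblast and endothelial markers summed to 9.24 FPKM in DHODH KO replicate 2 against 2.61 to 3.15 FPKM elsewhere. Pdgfra alone made up 2.39 to 2.87 FPKM of this sum in every library. The other genes of the list were all highest in DHODH KO replicate 2, such as Col3a1 at 2.95 FPKM against at most 0.0356 FPKM elsewhere. Immune cell markers summed to at most 0.291 FPKM. Leaving out DHODH KO replicate 2 moved the log2 fold change of a tested member by at most 0.055.

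Most nucleoporin and import receptor genes that changed were lower in KO. Of 35 members tested (mean of at least 1 FPKM over the libraries), 19 fell and 6 rose, where 29.1% of all 10170 genes tested were called lower and 35.6% higher. In total 25 of the tested members (71.4%) were called, against 64.7% of all genes, so the share called lay near the background, with relatively more falls and fewer rises than among all genes. The median log2 fold change of FPKM + 1, KO minus WT, was -0.15 over the members and 0.04 over all genes tested. Falls of at least 0.5 on the log2 scale were called in 5 members, Kpnb1, Ipo4, Ipo5, Kpna2 and Nup205, where 8.6% of all genes passed that rule. No member rose by as much, where 12.8% of all genes did. Ipo9 came closest, at 0.497, and reached 0.5 in 5 of 13 alternative fits, in which it ran from 0.446 to 0.507. Calls are Benjamini-Hochberg adjusted p-values under 0.05 from limma-trend over all genes tested. Without DHODH KO replicate 2, 17 members were called lower and 6 higher. In bulk RNA, fewer cells that express a gene and less of its RNA per cell cannot be told apart.

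**Figure D1:**
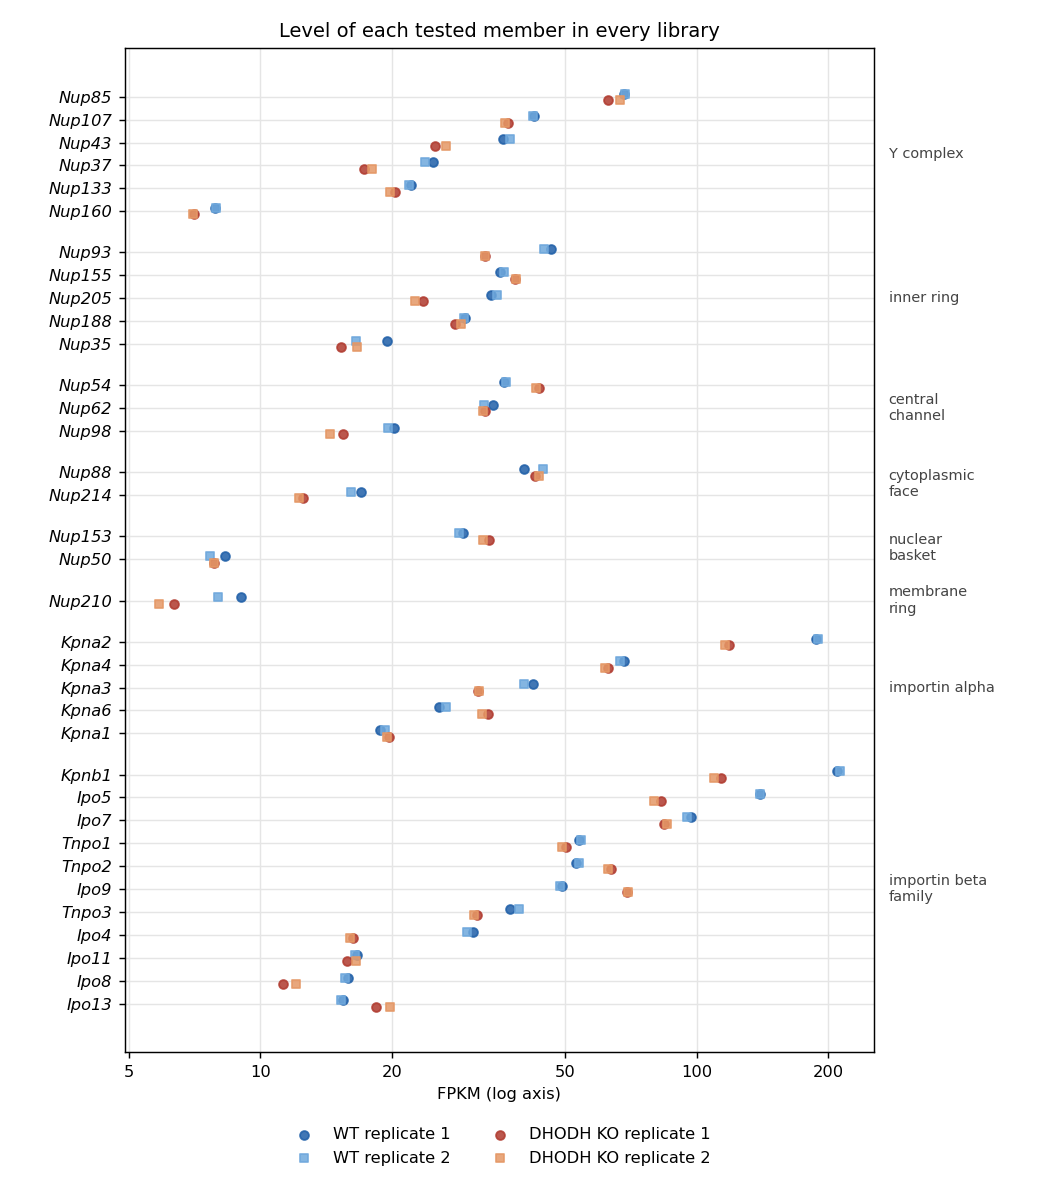
FPKM (log axis) of each tested member in the 4 libraries, grouped by place in the pore or receptor family; every point is 1 library, with WT drawn just above KO. Kpnb1, Kpna2 and Ipo5 are the highest members in WT, and their KO points lie well to the left of their WT points.

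The members that were not tested were low. Nup62cl, a relative of Nup62, was at 0.0121 and 0.0124 FPKM in WT and listed at 0 in both KO libraries. Nup210l, a paralogue of Nup210, measured 0.862 and 0.621 FPKM in WT and 1.06 and 0.954 FPKM in KO. The tested members were covered by 902 reads (Nup37 in DHODH KO replicate 1) to 43905 reads (Kpnb1 in WT replicate 1) per library. Replicates differed by a median of 0.03 on the log2 scale in either genotype, and in all 25 called members the change was larger than both replicate differences. A call already needs a change that is large beside the replicate spread, so this is no separate support for the calls. With 2 libraries against 2, an exact permutation test of a single gene cannot give a two-sided p below 0.333, so the calls rest on the spread that limma shares over genes.

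The central pair of the classical import pathway fell together. Kpnb1, which encodes the importin beta that ferries importin alpha and its cargo through the pore, measured 210.3 and 213 FPKM in WT and 114 and 109.6 FPKM in KO. Its mean was 1.90-fold higher in WT, with a log2 fold change of -0.92 ± 0.035 (SE) and an adjusted p of 2.4e-06, the largest fall among the tested members. Kpna2, the importin alpha gene with the highest level here, measured 188 and 190.0 FPKM in WT and 118 and 116 FPKM in KO. The groups did not overlap for either gene, and Kpna2 was 1.61-fold higher in WT (log2 fold change -0.68 ± 0.033, adjusted p = 6.0e-06). The ratio of Kpnb1 to Kpna2 FPKM was 1.12 in both WT libraries and 0.959 and 0.943 in the KO libraries. Kpnb1 was the highest member in WT and Kpna2 in KO.

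Of the importin beta family, Ipo4 and Ipo5 fell nearly as far as Kpnb1. Ipo5, a receptor known for importing ribosomal proteins and histones, measured 140.1 and 139.5 FPKM in WT and 82.9 and 79.7 FPKM in KO. It was 1.72-fold higher in WT, with a log2 fold change of -0.78 ± 0.036 (adjusted p = 5.2e-06). Ipo4, another importer of histones, measured 30.7 and 29.8 FPKM in WT and 16.3 and 16.0 FPKM in KO. It was 1.87-fold higher in WT (log2 fold change -0.87 ± 0.046, adjusted p = 8.2e-06), and its groups were as clearly apart as those of Ipo5. Ipo9, which carries the histone pair H2A-H2B and actin, went the other way, from 49.1 and 48.7 FPKM in WT to 69.1 and 69.8 FPKM in KO. This 1.42-fold rise was the largest among the tested members (log2 fold change 0.50 ± 0.036, adjusted p = 3.2e-05). The ratio of Ipo5 to Ipo9 FPKM was 2.85 and 2.86 in WT and 1.20 and 1.14 in KO.

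The promoters of these 5 receptors are shown because the genes made the largest changes among the import receptors, 4 down and 1 up. The windows are RefSeq sequences on GRCm38.p6, from 250 bases before to 50 bases after the annotated start, written 5′ to 3′ along the gene. This build is older than the GRCm39 build of the deposited values, and no coordinate was carried over. The windows lie at chr11:97187843-97188142 (minus strand) for Kpnb1, chr14:120910944-120911243 (plus strand) for Ipo5, chr14:55635635-55635934 (minus strand) for Ipo4, chr11:106999476-106999775 (minus strand) for Kpna2 and chr1:135430450-135430749 (minus strand) for Ipo9. Ipo5 and Ipo9 have 2 annotated starts, and the one farther upstream was taken. Capitals mark the CCAAT box (CCAAT or its reverse complement ATTGG, the word bound by NF-Y), the E-box CACGTG (bound by MYC and its relatives) and the CHR word (TTTGAA or TTCAAA, known from promoters of cell cycle genes).
Kpnb1: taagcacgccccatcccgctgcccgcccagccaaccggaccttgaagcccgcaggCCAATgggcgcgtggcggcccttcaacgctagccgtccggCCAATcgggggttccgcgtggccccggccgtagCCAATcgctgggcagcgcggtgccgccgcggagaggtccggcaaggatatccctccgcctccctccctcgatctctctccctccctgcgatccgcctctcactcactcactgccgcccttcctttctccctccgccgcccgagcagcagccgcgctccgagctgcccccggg
Ipo5: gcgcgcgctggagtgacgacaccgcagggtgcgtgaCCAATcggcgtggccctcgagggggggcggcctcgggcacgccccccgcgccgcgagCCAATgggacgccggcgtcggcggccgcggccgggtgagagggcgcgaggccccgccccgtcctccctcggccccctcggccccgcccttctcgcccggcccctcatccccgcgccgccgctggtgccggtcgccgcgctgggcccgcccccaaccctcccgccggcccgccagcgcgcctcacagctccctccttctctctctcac
Ipo4: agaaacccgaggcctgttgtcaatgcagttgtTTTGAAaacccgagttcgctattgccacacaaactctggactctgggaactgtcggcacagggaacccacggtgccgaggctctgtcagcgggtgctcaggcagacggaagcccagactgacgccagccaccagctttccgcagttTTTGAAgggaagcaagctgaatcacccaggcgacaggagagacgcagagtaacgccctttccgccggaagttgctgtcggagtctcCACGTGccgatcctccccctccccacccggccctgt
Kpna2: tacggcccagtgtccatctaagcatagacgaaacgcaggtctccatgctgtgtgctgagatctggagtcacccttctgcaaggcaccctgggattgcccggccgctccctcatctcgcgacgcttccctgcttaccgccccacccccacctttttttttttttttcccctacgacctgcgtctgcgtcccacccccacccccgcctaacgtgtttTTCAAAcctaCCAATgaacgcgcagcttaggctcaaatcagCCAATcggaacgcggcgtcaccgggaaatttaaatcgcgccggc
Ipo9: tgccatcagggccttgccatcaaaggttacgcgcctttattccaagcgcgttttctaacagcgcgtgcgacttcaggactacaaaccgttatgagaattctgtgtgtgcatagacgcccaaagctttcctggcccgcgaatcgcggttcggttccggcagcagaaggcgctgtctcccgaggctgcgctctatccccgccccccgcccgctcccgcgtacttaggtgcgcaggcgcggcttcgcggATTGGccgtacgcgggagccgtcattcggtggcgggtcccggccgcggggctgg
Kpnb1 held 3 CCAAT words and Ipo5 held 2, all in the strand shown. Kpna2 held 2 CCAAT words and 1 CHR word that lies 35 bases before the start. Ipo4 held 2 CHR words and an E-box 14 bases past the start, and Ipo9 held 1 CCAAT word in the reverse strand. Over the 30 members with a window, 17 (56.7%) held a CCAAT word, against 41.1% of all 27025 genes in the table of promoters. The E-box was found in 6 members (20%), against 8.09% of all genes, and the CHR word in 6 (20%), against 20.2%. CCAAT words were present in 9 of 17 members that fell, 2 of 5 that rose and 6 of 8 that were not called or not tested. In the same order, the E-box was present in 3 of 17, 2 of 5 and 1 of 8, and the CHR word in 5 of 17, 1 of 5 and 0 of 8. These shares were not tested, and the 27025 genes were not limited to those tested for expression here. The words were picked after windows of a few members had been seen, both strands were searched, the words share no letters in these windows, and a match is a string of letters and not a tested binding site.

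**Figure D2:**
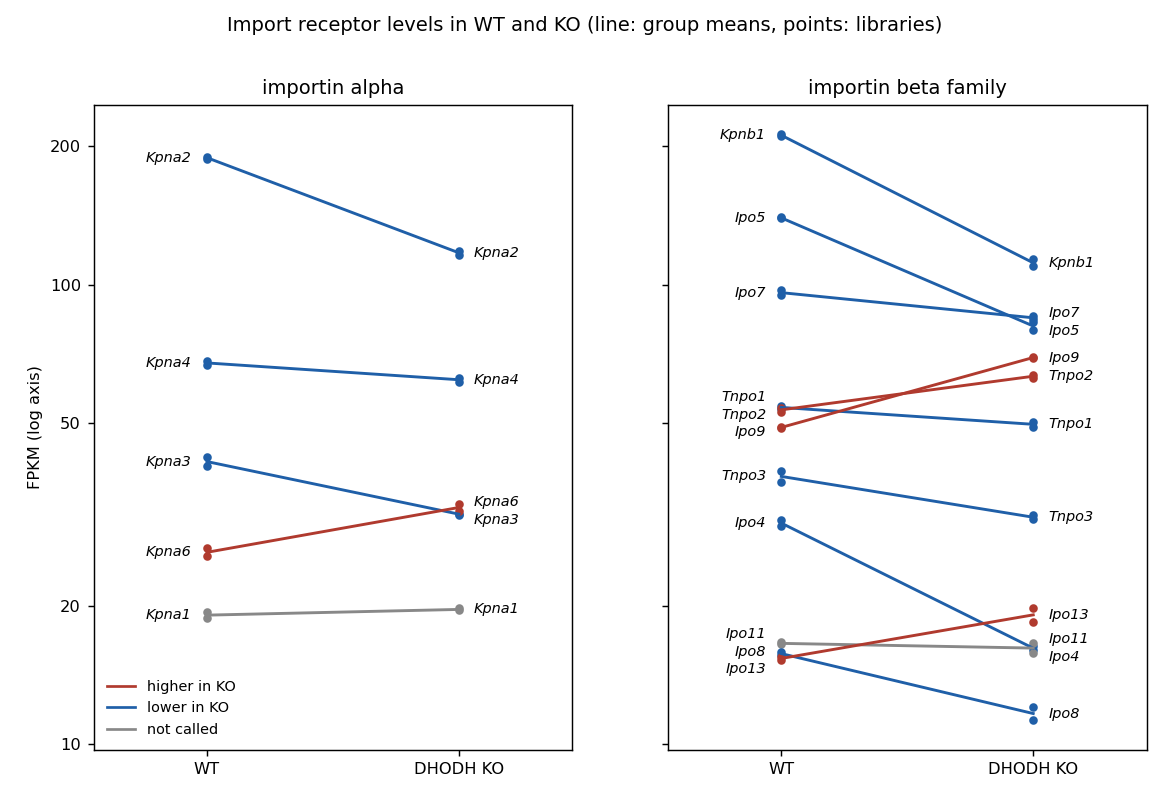
FPKM (log axis) of the import receptor genes in WT and DHODH KO; lines join the group means, points are the single libraries (n = 2 per genotype), red genes were called higher in KO, blue lower, and grey were not called. The fall of Kpnb1, Ipo5, Ipo4 and Kpna2 and the rise of Ipo9 are the steepest lines.

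The remaining importin alpha genes were spread around smaller changes. Kpna3 fell from 41.2 ± 1.26 to 31.7 ± 0.0943 FPKM (SD, n = 2 here and below), and Kpna6 rose from 26.1 ± 0.741 to 32.7 ± 0.755 FPKM, with adjusted p-values of 2.5e-04 and 7.6e-04. The order of these adaptors was therefore Kpna3 above Kpna6 in both WT libraries and Kpna6 above Kpna3 in both KO libraries. Kpna4 fell slightly, from 67.6 ± 0.919 to 62.1 ± 0.806 FPKM (adjusted p = 0.0234), and its call was lost without WT replicate 1 (adjusted p = 0.151), WT replicate 2 (0.0794) or DHODH KO replicate 2 (0.0513). Kpna1 measured 19.1 ± 0.366 FPKM in WT and 19.6 ± 0.146 FPKM in KO and was not called (adjusted p = 0.482). Summed over the 5 importin alpha genes, the WT libraries reached 343 ± 0.282 FPKM and the KO libraries 263 ± 3.22 FPKM. Kpna2 made up 54.9% and 55.4% of that sum in the WT libraries and 44.6% and 44.5% in the KO libraries, and the share of Kpna6 was 7.62% ± 0.210 in WT and 12.4% ± 0.135 in KO.

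The other receptors of the importin beta family included close relatives that moved apart. Tnpo1 and Tnpo2 encode transportins that import hnRNP proteins, and their levels overlapped in WT, at 53.7 and 54.4 FPKM for Tnpo1 and 52.9 and 53.9 FPKM for Tnpo2. In KO, Tnpo2 measured 63.7 and 62.7 FPKM and Tnpo1 50.2 and 49.1 FPKM, so Tnpo2 lay above Tnpo1 in both libraries. Tnpo2 rose (log2 fold change 0.24 ± 0.037, adjusted p = 0.00107), and Tnpo1 was called lower (log2 fold change -0.12 ± 0.038, adjusted p = 0.0264). The Tnpo1 call was lost without WT replicate 1 (adjusted p = 0.0938), WT replicate 2 (0.150) or DHODH KO replicate 2 (0.0650). Tnpo3, the importer of SR splicing factors, fell from 38.2 ± 1.39 to 31.2 ± 0.397 FPKM (adjusted p = 0.00108). Ipo7, a carrier of ribosomal proteins, fell by 0.18 and its relative Ipo8 by 0.40 on the log2 scale (adjusted p = 0.00330 and 5.9e-04). Ipo13, which both imports and exports cargo, rose from 15.4 ± 0.124 to 19.1 ± 0.934 FPKM (adjusted p = 0.00215). Ipo11 measured 16.6 ± 0.129 FPKM in WT and 16.2 ± 0.590 FPKM in KO, with overlapping groups (adjusted p = 0.596). The family of 11 summed to 720 ± 1.11 FPKM in WT and 554 ± 3.68 FPKM in KO. Reads that fit more than 1 relative could have been divided among them in a way the sources used here do not give.

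**Figure D3:**
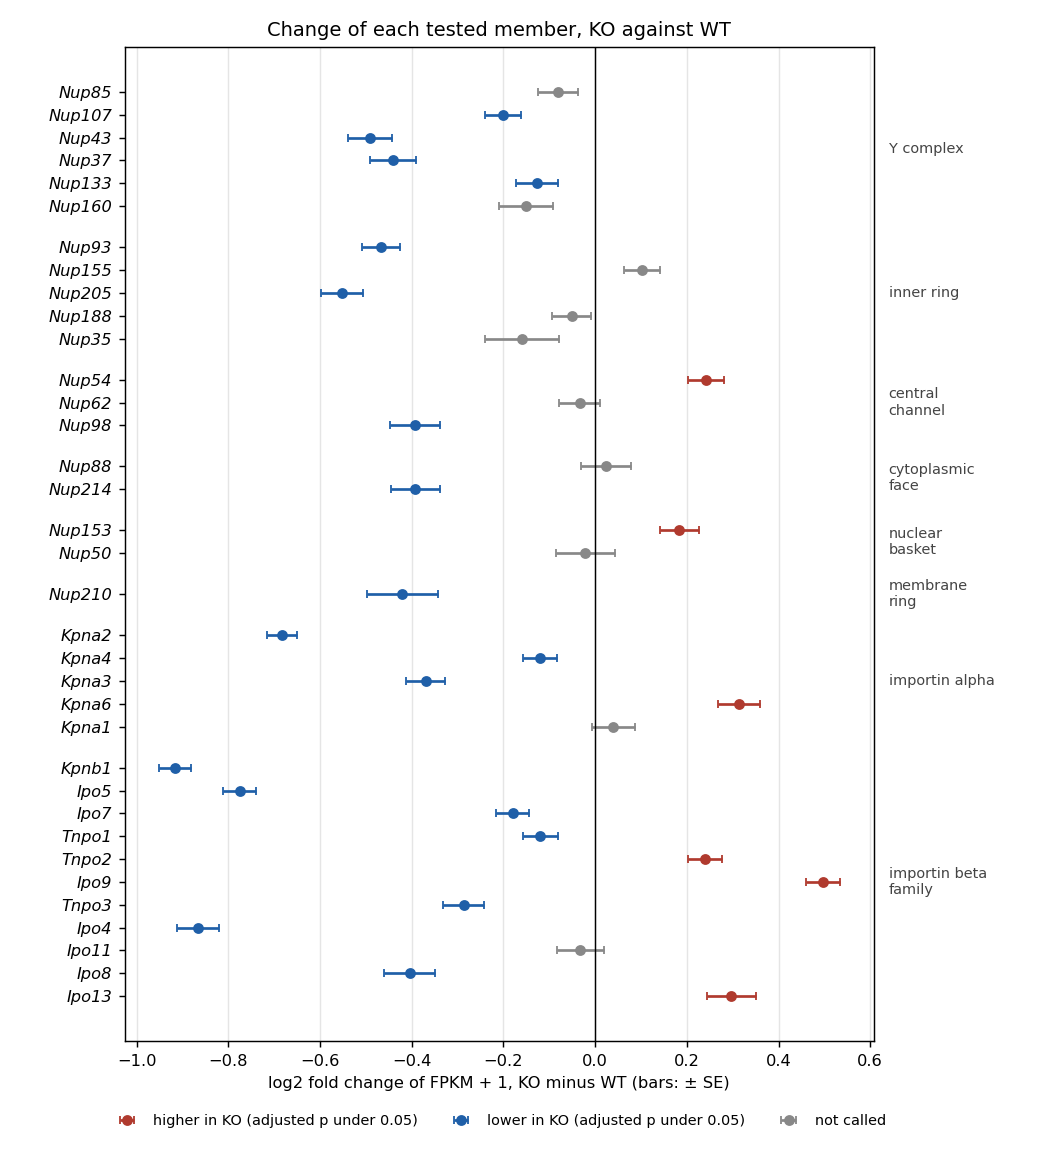
Log2 fold change of FPKM + 1 (KO minus WT, bars ± SE from limma, n = 2 per genotype) of each tested member, by place in the pore or receptor family; blue was called lower, red higher, grey not called. The 6 Y complex genes all lie below 0, while the other groups with more than 1 gene hold points on both sides.

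Genes of the Y complex, the scaffold of the outer rings, lay lower in KO to different degrees. Of 6 members tested, 4 were called lower and none higher, where 29.1% of all genes tested were called lower and 35.6% higher. In all 6 both KO values lay below both WT values, a separation that held in either direction for 83.4% of all genes tested. Sec13 and Seh1l, Y complex genes with other symbols, are not among these 6 and were not called (adjusted p = 0.0592 and 0.0858). Nup43, a small subunit of the complex, fell from 36.7 ± 0.925 to 25.8 ± 1.02 FPKM (adjusted p = 1.1e-04). Nup37, another small subunit, fell from 24.4 ± 0.809 to 17.7 ± 0.532 FPKM (adjusted p = 2.4e-04). Nup107, which lies in the stem of the Y, fell from 42.3 ± 0.254 to 36.6 ± 0.310 FPKM (adjusted p = 0.00312). Nup133 was called lower by 0.13 on the log2 scale (adjusted p = 0.0423), and its call was lost without WT replicate 1 (adjusted p = 0.168), WT replicate 2 (0.135) or DHODH KO replicate 2 (0.132). Nup160 measured 7.90 ± 0.0389 FPKM in WT and 7.02 ± 0.0363 FPKM in KO, just short of a call (adjusted p = 0.0590). Nup85 measured 68.4 ± 0.0671 FPKM in WT and 64.6 ± 2.99 FPKM in KO and was called only without DHODH KO replicate 2 (adjusted p = 0.0229, against 0.134 with it) among the fits that left out 1 library.

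The inner ring was uneven. Nup205 measured 33.8 and 34.9 FPKM in WT and 23.6 and 22.6 FPKM in KO, 1.49-fold higher in WT with no overlap (log2 fold change -0.55 ± 0.045, adjusted p = 5.5e-05). Its partner Nup93, which links the parts of the inner ring, fell from 45.6 ± 1.23 to 32.7 ± 0.0802 FPKM (adjusted p = 7.5e-05). Nup188, the paralogue of Nup205 that also binds Nup93, measured 29.4 ± 0.120 FPKM in WT and 28.4 ± 0.635 FPKM in KO and was not called (adjusted p = 0.322). Nup155 lay on the other side, at 35.7 ± 0.504 FPKM in WT and 38.4 ± 0.274 FPKM in KO (adjusted p = 0.0562). The ratio of Nup205 to Nup155 FPKM was 0.955 and 0.966 in WT and 0.616 and 0.585 in KO. Nup35 was the member with the widest replicate difference, at 19.5 and 16.5 FPKM in WT and 15.3 and 16.6 FPKM in KO. Its groups overlapped, and it was called only without WT replicate 2 (adjusted p = 0.0139, against 0.120 with all libraries) among the fits that left out 1 library.

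Nucleoporins of the channel and of both faces of the pore went both ways. Nup98, whose gene encodes a channel nucleoporin and, from the same precursor, the Y complex subunit Nup96, fell from 19.9 ± 0.395 to 14.9 ± 0.752 FPKM (adjusted p = 6.1e-04). Nup54 rose from 36.4 ± 0.371 to 43.2 ± 0.462 FPKM (adjusted p = 0.00135), whereas its channel partner Nup62 measured 33.3 ± 1.23 FPKM in WT and 32.6 ± 0.249 FPKM in KO with overlapping groups (adjusted p = 0.538). Nupl1, the symbol used in the table for the third channel partner, Nup58, fell from 16.4 ± 0.408 to 11.9 ± 0.268 FPKM (adjusted p = 3.2e-04). On the cytoplasmic face, Nup214 fell from 16.6 ± 0.652 to 12.4 ± 0.188 FPKM (adjusted p = 5.8e-04), and its partner Nup88 measured 42.3 ± 3.07 FPKM in WT and 43.0 ± 0.632 FPKM in KO (adjusted p = 0.724). In the nuclear basket, Nup153 rose from 28.8 ± 0.452 to 32.9 ± 0.633 FPKM (adjusted p = 0.00707, and 0.0506 without WT replicate 2). Nup50, which helps importin alpha to release its cargo, measured 7.97 ± 0.437 FPKM in WT and 7.83 ± 0.00299 FPKM in KO (adjusted p = 0.787). Nup210, a glycoprotein of the pore membrane, fell from 8.49 ± 0.726 to 6.08 ± 0.336 FPKM (adjusted p = 0.00240).

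Summed levels by place in the pore followed these members. The Y complex genes summed to 202 ± 0.162 FPKM in WT and 172 ± 3.75 FPKM in KO, and the inner ring genes to 163 ± 2.18 and 139 ± 1.23 FPKM. The nuclear basket genes summed to 36.8 ± 0.889 FPKM in WT and 40.7 ± 0.636 FPKM in KO. The channel genes summed to 89.6 ± 1.26 and 90.7 ± 1.46 FPKM, with overlapping groups. These sums hold only genes with a Nup symbol. The channel sum leaves out Nupl1, which fell from 16.4 to 11.9 FPKM. The basket sum leaves out Tpr, which rose from 91.1 to 118 FPKM. The Y complex sum leaves out Sec13 and Seh1l, at 80.5 and 20.4 FPKM in WT and 74.0 and 18.9 FPKM in KO. The 21 nucleoporin genes with a Nup symbol summed to 559 ± 2.97 FPKM in WT and 504 ± 2.92 FPKM in KO. The 12 nucleoporin genes with other symbols are not part of that sum. Levels of different genes are per length, and the lengths behind the deposited values ran from 1290 bases for Nup43 to 13396 bases for Nup160, so an order of levels between genes depends on these gene models.

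**Figure D4:**
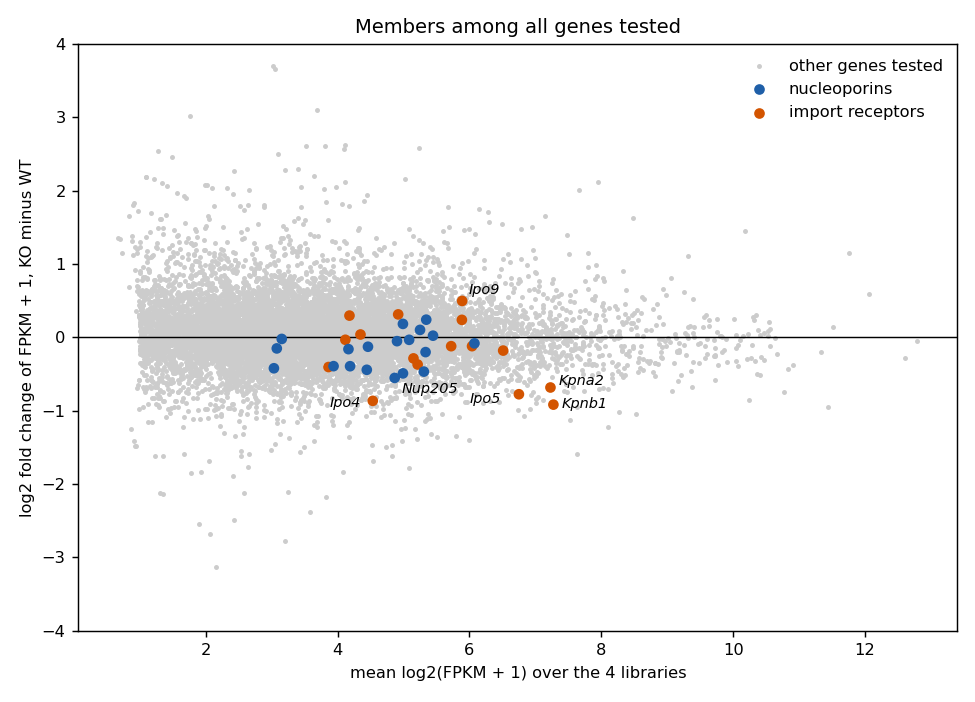
Log2 fold change of FPKM + 1 (KO minus WT) against the mean log2(FPKM + 1) over the 4 libraries for all 10170 genes tested (grey), with nucleoporins in blue and import receptors in orange. The members lie between -0.92 and 0.50, within the range of -3.13 to 3.70 over all genes.

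Nucleoporin genes with other symbols were mixed as well. Of 12 tested, 6 fell and 2 rose, where 29.1% of all genes tested fell and 35.6% rose. The share called was 66.7%, near the 64.7% of all genes. Tpr, the coiled-coil protein of the nuclear basket, rose from 91.1 ± 2.02 to 118 ± 4.05 FPKM, and Aaas, on the cytoplasmic side, from 28.1 ± 0.350 to 34.8 ± 1.13 FPKM. Ahctf1, which recruits the Y complex to chromatin, fell from 35.5 ± 1.13 to 27.3 ± 1.99 FPKM. With Nup153, Nup50 and Tpr, the basket was thus represented by 2 genes that rose and 1 that was not called.

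Most exportin and Ran cycle genes that changed were lower in KO. Of 7 exportin genes, 5 fell and none rose, where 29.1% of all genes tested fell and 35.6% rose, with a median log2 fold change of -0.23 against 0.04 over all genes. Xpo7 fell from 22.3 ± 0.335 to 12.3 ± 0.444 FPKM and Xpo4 from 12.4 ± 0.233 to 7.03 ± 0.217 FPKM (adjusted p = 1.7e-05 and 4.5e-05). Cse1l, the exporter that returns importin alpha to the cytoplasm, fell from 72.2 ± 1.52 to 56.4 ± 0.366 FPKM, beside the fall of Kpna2, and Xpo5, an exporter of precursor microRNAs, fell by 0.23 on the log2 scale. All 7 tested genes of the Ran cycle were called, where 64.7% of all genes were, 5 lower and 2 higher. Ran fell from 392 ± 1.93 to 273 ± 15.0 FPKM and its binding protein gene Ranbp1 from 419 ± 2.12 to 346 ± 2.60 FPKM (adjusted p = 5.3e-05 and 2.1e-04), while Rcc2 and Ranbp3 rose by 0.22 and 0.20.

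Messenger RNA export and envelope genes that changed went in both directions. Of 22 mRNA export genes, 6 fell, 4 rose and 12 were not called, with a median of -0.03. The share called was thus 45.5%, below the 64.7% of all genes tested, with 27.3% lower and 18.2% higher. The helicase gene Ddx39a fell from 119 ± 4.67 to 72.3 ± 0.708 FPKM, and Zc3h11a, Poldip3 and Nxt2 rose by 0.53, 0.45 and 0.67 on the log2 scale. Of 18 genes of the lamina and of the LINC complex, which ties the nucleus to the cytoskeleton, 9 fell and 5 rose. The lamin gene Lmnb1 fell from 52.0 ± 2.07 to 26.9 ± 1.84 FPKM and Banf1, a DNA-binding protein of the envelope, from 172 ± 3.29 to 95.6 ± 0.940 FPKM. Syne3 fell by 0.77, and Lemd2, an inner membrane protein gene, rose 2.10-fold to 23.6 ± 1.13 FPKM. Of 6 SUMO genes, taken because SUMO enzymes sit at the pore, 2 fell and 2 rose, with a median of -0.05, and the SUMO protease gene Senp1 fell by 0.45 on the log2 scale. Over all 6 lists of related genes, 33 of 72 tested genes fell (45.8%) and 15 rose (20.8%), beside 54.3% and 17.1% of the nucleoporins and import receptors and 29.1% and 35.6% of all genes tested. The share of the related genes called in either direction was 66.7%, near the 64.7% of all genes.

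**Figure D5:**
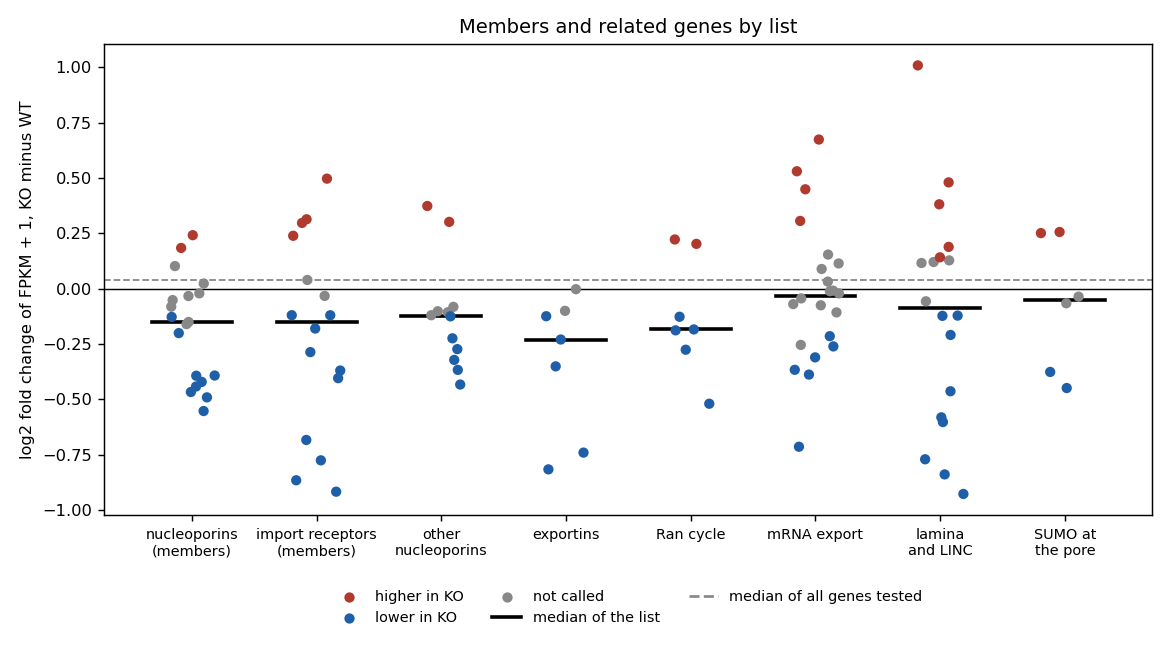
Log2 fold change of FPKM + 1 (KO minus WT) of the tested members and of the related genes by list; points are genes, black bars are medians of the lists and the dashed line is the median of all genes tested (0.04). The medians of all 8 groups lie below the dashed line, and every group holds called genes on the lower side.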

How the data were processed

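RNA-seq of 2 WT and 2 DHODH KO samples of 4T1 cells was analysed from one table with a column per sample, matched by title. It holds FPKM values that the authors deposited. The submitters' processing notes name fastp, HTSeq and the build GRCm39, without versions. The aligner, annotation and strand setting were not given in the sources used here. Reads of overlapping or antisense genes therefore cannot be separated.

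FPKM is reads divided by gene length and library total. Once the library totals were solved for, all 12865 genes above 0 in every library fell on whole reads, within 0.005 of a read, which gave their lengths and reads. For the other 3830 genes, Nup62cl among them, too few values were above 0 to fix either, and they were left out of the recovered reads. The 2 libraries of a genotype were farther apart than sampling of reads gives, and were kept as separate samples. The mean chi-square per gene was 4.03 in WT and 6.86 in KO, over 11779 and 11962 genes with at least 20 reads. The KO mean includes fibroblast markers raised in DHODH KO replicate 2, such as Col3a1, with 1 read in DHODH KO replicate 1 and 619 in replicate 2. How much such genes add to it was not worked out.

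Genes with a mean of at least 1 FPKM were tested with limma-trend (limma 3.58.1, R 4.3.3) on log2(FPKM + 1) with genotype as the single term and two-sided p-values. The pseudocount of 1 understates changes of low genes. A fold is the ratio of 2 group means in FPKM. The fit was tested on simulated data. The members and lists were chosen with earlier results of these data known. Per-library values are given for called members that moved by 0.5 or more on the log2 scale and for some others, and up to 4 called genes with the smallest adjusted p are named per list of related genes, except that some genes are not reported here. Alternatives were the pseudocount, the filter, the scaling, the variance model, the replicate number as a block, fits without each library in turn, and voom on the recovered reads. Promoter windows of RefSeq were matched by Entrez identifier for 30 of 37 members, and those of Kpna1, Kpna3, Kpna6, Nup35, Nup43, Nup85 and Nup210l were not used here. Python 3.11.15, pandas 2.3.3, NumPy 2.4.6 and Matplotlib 3.10.9 were used.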

Additional observations from a re-analysis of the deposited data

How the results depend on the processing

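Of the 25 called members, 21 kept their direction and their call under all 13 alternatives, and Kpna4, Nup133, Tnpo1 and Nup153 lost it in at least 1. The count of members lower in KO ran from 16 to 22 and that of members higher from 5 to 7. The median log2 fold change of the members was -0.13 with no filter and -0.20 with median-ratio scaling, and that of all genes tested was 0.0096 and -0.0083 under these settings, against 0.039. Without 1 library the median of the members ran from -0.15 to -0.13. Members that were not called changed sign in a few fits. With median-ratio scaling, Kpna1 was at -0.010 and Nup88 at -0.028. Without 1 library, Ipo11 ran from -0.068 to 0.0024 (positive without DHODH KO replicate 1), Nup50 from -0.071 to 0.029, Nup62 from -0.070 to 0.0036 and Nup88 from -0.049 to 0.096, each of these 3 with its turn of sign without WT replicate 1. With the replicate number as a block, 18 members were lower and 6 higher. Same-numbered libraries deviated together hardly at all (r = 0.046 across 10170 genes). The labels do not say whether same-numbered libraries shared a culture or preparation. This r rests on a single replicate difference per genotype, so it cannot decide that. With 2 libraries per genotype, small changes near the threshold are the least certain.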
